A study of Mus musculus with 4 samples.

Results

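The γ and δ chains form the antigen receptor of γδ T cells, and their genes were followed here through sorted CD4 T cells, whose receptor is made of α and β chains. The 6 genes described are the constant genes Tcrg-C1, Tcrg-C2 and Trdc and the variable genes Tcrg-V7, Trgv2 and Trdv4. They were picked by name from the 31053 genes of the deposited matrices, with their levels in these cells already known, so those levels are a description and carry no test. The annotated γ and δ loci held 26 genes in these matrices, which makes the 6 a selection of their loci. Of the other 20, 4 had no UMI, and 12 of the 26 had fewer than 20 UMIs (a UMI, or unique molecular identifier, marks 1 captured transcript).

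The cells came from the lamina propria, the connective layer beneath the gut epithelium, of the small intestine of C57Bl/6 mice of the wildtype genotype, and no treatment is named. Living cells positive for CD45, CD3 and CD4 were sorted and 5′ single-cell libraries were made. All 4 libraries belonged to 1 group, and the labels do not say whether each held 1 mouse, so they are called libraries 1 to 4 and their spread may be technical in part. The age of the mice is not given in the sources used here.

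In the thymus, variable, joining and constant gene segments of the γ loci are brought together by recombination, and each γ constant gene has its own nearby variable and joining segments. The δ genes lie inside the α chain locus, between the variable segments and the constant gene of the α chain, and rearrangement of the α locus removes them from that chromosome. T cells that go on to make an αβ receptor often keep rearranged γ genes, and a γ transcript therefore does not by itself make a cell a γδ T cell. In the intestine, γδ T cells are best known from the epithelium, where Tcrg-V7 is the variable segment most often used.

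The sequences of the γ constant genes are shown because the genes are so alike that a short read from one can match another. Bases 61 to 180 of the first constant exon are given from the GENCODE M21 transcripts of mm10, and capitals mark bases that differ from Tcrg-C1 at the same place. The stretches lie at chr13:19214163-19214282 (plus strand, Tcrg-C1), chr13:19307372-19307491 (minus strand, Tcrg-C2), chr13:19260945-19261064 (plus strand, Tcrg-C3) and chr13:19344618-19344737 (plus strand, Tcrg-C4).
Tcrg-C1: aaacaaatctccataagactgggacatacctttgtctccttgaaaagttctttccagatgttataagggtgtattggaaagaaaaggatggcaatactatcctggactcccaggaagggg
Tcrg-C2: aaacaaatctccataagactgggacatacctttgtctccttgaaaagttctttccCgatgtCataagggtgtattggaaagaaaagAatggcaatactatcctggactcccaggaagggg
Tcrg-C3: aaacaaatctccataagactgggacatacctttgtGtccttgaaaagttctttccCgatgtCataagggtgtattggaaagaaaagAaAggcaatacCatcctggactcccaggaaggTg
Tcrg-C4: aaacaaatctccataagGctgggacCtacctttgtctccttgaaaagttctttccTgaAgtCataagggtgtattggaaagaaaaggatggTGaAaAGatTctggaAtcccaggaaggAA

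Over the whole 330-base exon, Tcrg-C2 differed from Tcrg-C1 at 9 bases, Tcrg-C3 at 13 and Tcrg-C4 at 59. Of all 50-base windows of the transcript, 29.6% of those of Tcrg-C1 and 25.4% of those of Tcrg-C2 occurred unchanged in another constant gene. None of the windows of Tcrg-C4, Tcrg-V7, Trdc or Trdv4 occurred in another gene of the loci, and 7.01% of those of Trgv2 occurred in Tcrg-V3 or Tcrg-V1. How the counting handled reads that match more than 1 gene is not given in the sources used here, so the split of UMIs between Tcrg-C1 and Tcrg-C2 is uncertain.

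The 2 γ variable genes among the members are unlike each other where a 5′ library reads them. Their first 60 coding bases are given with the start codon in capitals.
Tcrg-V7: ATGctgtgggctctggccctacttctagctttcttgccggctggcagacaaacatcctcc
Trgv2: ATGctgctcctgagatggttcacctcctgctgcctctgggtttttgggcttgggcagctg

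Each constant gene has a joining segment just upstream of it, and these short segments show the same kinship as the exons. Capitals mark bases that differ from Trgj1, aligned at the 3′ end.
Trgj1: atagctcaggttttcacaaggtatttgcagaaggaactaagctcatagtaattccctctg
Trgj3: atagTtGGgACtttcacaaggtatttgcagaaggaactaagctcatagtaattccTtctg
Trgj2: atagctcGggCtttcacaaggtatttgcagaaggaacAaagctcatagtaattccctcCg
Trgj4: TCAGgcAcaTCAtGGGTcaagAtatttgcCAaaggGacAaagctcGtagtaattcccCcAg

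On chromosome 13 the γ genes form clusters of a variable, a joining and a constant gene. Tcrg-V7 (chr13:19178024-19178492) and Tcrg-C1 (chr13:19214103-19217024) lie on the plus strand with 35.6 kb between them. Trgv2 (chr13:19336573-19337167) and Tcrg-C2 (chr13:19304649-19307551) lie on the minus strand with 29.0 kb between them. Trgv2 also lies 7.39 kb from Tcrg-C4 (chr13:19344558-19352756), which is on the opposite strand. On chromosome 14, Trdv4 (chr14:54074905-54075515) and Trdc (chr14:54142851-54148868) lie on the plus strand upstream of Trac (chr14:54220521-54224206), the α constant gene. Trdv5 (chr14:54148662-54149294), on the minus strand, overlaps the end of Trdc, and whether the counting used strand is not given in the sources used here.

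After filtering, 21501 cells remained, 5149 to 5626 per library with medians of 3630 to 4174 UMIs per cell, and pairs of libraries shared 34 to 55 cell barcodes. At least 1 UMI of Cd3e, a CD3 chain, was found in 99.3% of cells, of Cd4 in 74.8% and of Trac in 73.6%. Each cell was put in the first of 6 gates that it met: at least 1 UMI of Foxp3 (the factor of regulatory T cells), Il17a (a cytokine of Th17 cells), Cd8a (the CD8 α chain) or Ifng (interferon gamma), then at least 10 UMIs of Gzma (granzyme A), then the rest. The gates held 1535, 586, 585, 6332, 1553 and 10910 cells in that order. Library 4 gave 306 of the 585 cells of the Cd8a gate (52.3%) against 88 to 100 from each other library. In that gate, a UMI of Cd4 was found in 63% to 75.8% of cells by library and of Cd8b1, the CD8 β chain, in 5.56% to 34%.

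γ transcripts were common in these cells and δ transcripts were rare. To compare cells of unequal depth, shares of cells with a UMI were taken after each cell was thinned to 2000 UMIs, which kept 20752 cells. At that depth, 27.7% ± 5.54 (SD, n = 4 libraries) of cells held a UMI of Tcrg-C1, Tcrg-C2, Tcrg-V7 or Trgv2, and without thinning 34.5% ± 5.75 did. A UMI of Trdc was found in 0.293% ± 0.26 of thinned cells, and Trdv4 had 18 UMIs in 11 cells over all libraries. Of the cells left, 27 held no CD3 transcript and at least 2 markers of myeloid or B cells, with a median of 6945 UMIs. None of these 27 held a UMI of any of the 6 genes or of Trac, which allows a share of up to 11.1% and so limits background only loosely.

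The share of γ-positive cells was highest in the Cd8a gate and lowest in the Foxp3 gate in every library. In libraries 1 to 4 it was 61.4%, 80.6%, 66.7% and 80.8% in the Cd8a gate. In the Foxp3 gate it was 1.73%, 4.65%, 5% and 9.63%, so the highest Foxp3 value lay far under the lowest Cd8a value. The Gzma gate followed the Cd8a gate with 37.2%, 39%, 47.6% and 57.6%. The Ifng gate (32.1% ± 5.31), the Il17a gate (29.2% ± 9.03) and the rest (23.4% ± 4.09) lay between, and their libraries overlapped. Medians of 3590 to 5216 UMIs per cell were found over the gates, with the Foxp3 gate (4483) above the Cd8a gate (3730).

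**Figure D1:**
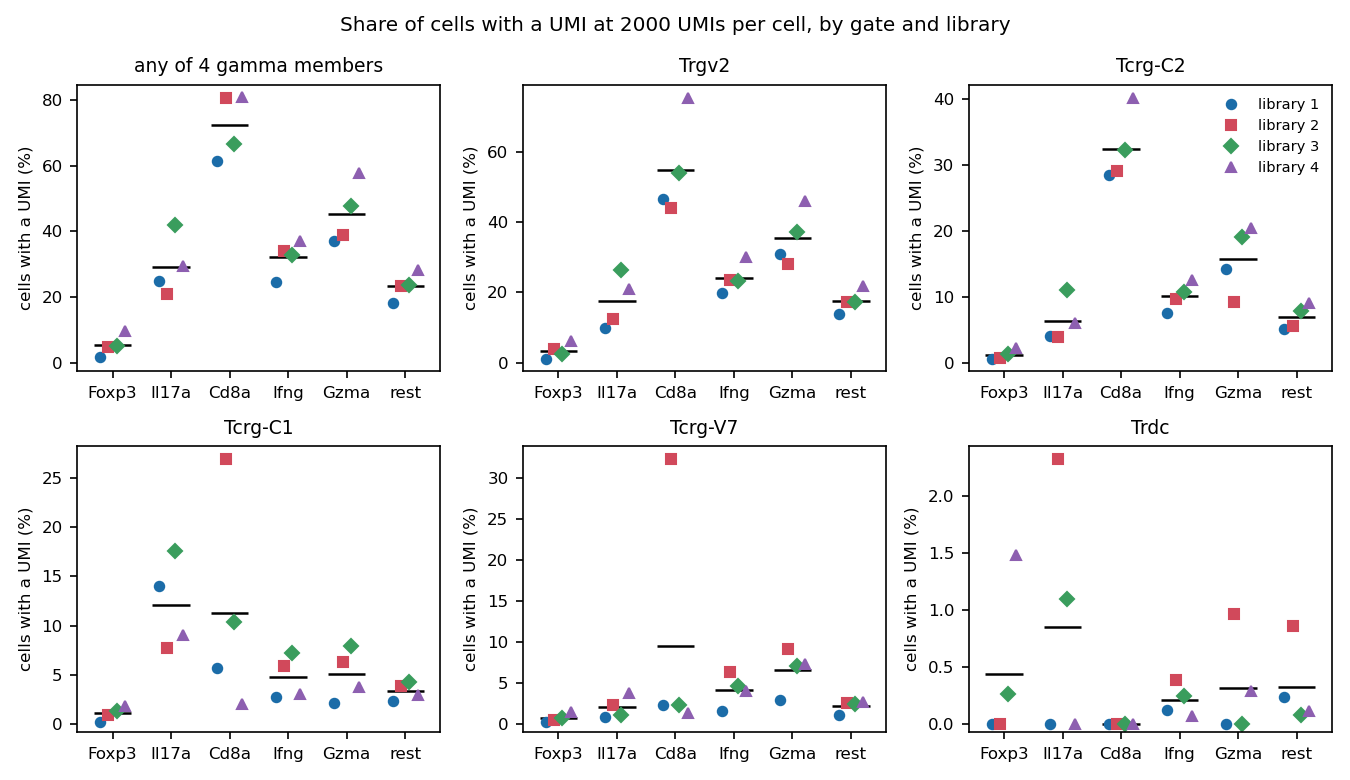
Share of cells with at least 1 UMI (y axis, percent of cells at 2000 UMIs per cell) in each gate (x axis) for any of the 4 γ genes and for 5 genes singly, with 1 marker per library and a line at the mean of 4 libraries. The Cd8a gate stands highest for Trgv2 and Tcrg-C2 in all libraries, while its means for Tcrg-C1 and Tcrg-V7 are set by library 2 (26.9% and 32.3%).

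Trgv2, the variable segment of the Tcrg-C2 cluster, had the most UMIs of the 6, 19886. In the Cd8a gate it reached 566, 560, 541 and 1136 CPM (UMIs scaled to 1e6 UMIs of the gate in that library) in libraries 1 to 4. In the rest gate the values were 120, 156, 176 and 213 CPM, and in the Foxp3 gate 17.2, 40.2, 21.8 and 78.5 CPM. The 3 ranges did not overlap, and library 4 stood apart at the top of the Cd8a gate. Its share of cells was 55.1% ± 14.3 in the Cd8a gate, 35.6% ± 8.03 in the Gzma gate, 17.6% ± 3.24 in the rest and 3.35% ± 2.26 in the Foxp3 gate.

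Tcrg-C2, the constant gene of that cluster, was likewise highest in the Cd8a gate and lowest in the Foxp3 gate. Its values in the Cd8a gate were 192, 201, 195 and 280 CPM in libraries 1 to 4, again with library 4 highest. The Gzma gate gave 75.4, 55, 104 and 112 CPM, the rest 29, 34.3, 45.7 and 53.2 CPM, and the Foxp3 gate 6.16, 11.3, 4.95 and 17.4 CPM. None of these 4 gates overlapped in range with another. The Ifng gate lay at 61.7 ± 14.3 CPM and the Il17a gate at 42.1 ± 29.1, the latter above the mean of the rest (40.5 ± 11) for Tcrg-C2 but under it for Trgv2 (128 ± 65.1 against 166 ± 38.8), with overlapping libraries. Tcrg-C4, the neighbouring constant gene and not one of the 6, was found at 141 to 283 CPM in the Cd8a gate and 3.96 to 12.8 CPM in the Foxp3 gate.

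Tcrg-C1, the constant gene downstream of Tcrg-V7, had a different order, with its highest mean share in the Il17a gate. There it was found at 88.9, 45.7, 154 and 56.4 CPM in libraries 1 to 4, in 12.1% ± 4.55 of cells. The Cd8a gate gave 34.2, 279, 64.1 and 15.3 CPM, a spread in which library 2 stood high and library 4 low, in 11.2% ± 11 of cells. Without library 2 the mean of the Cd8a gate was 37.9 CPM in place of 98.1. The rest gate lay at 16.3 to 33.9 CPM and the Foxp3 gate at 2.05 to 19.8 CPM.

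Tcrg-V7, the variable segment known from intraepithelial γδ T cells, depended on the library. Its values in the Cd8a gate were 13.7, 1099.7, 16.6 and 19.2 CPM, so library 2 alone stood high. Of 26 cells of that gate with 5 or more Tcrg-V7 UMIs, 25 came from library 2. Without library 2 the mean of the gate fell from 287 to 16.5 CPM. Outside that gate, the Gzma gate had the highest mean, with 33.1, 63.2, 53.6 and 119 CPM. The rest gate gave 10.2, 19.8, 16 and 22.4 CPM and did not overlap the Gzma gate. The Ifng gate (13.4 to 47.9 CPM) and the Il17a gate (2.42 to 61.6 CPM) did overlap it.

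Trdc, the only δ constant gene, had 236 UMIs in 88 cells, of which 142 UMIs and 48 cells were in library 2. Over all cells it was found at 0.716, 5.89, 0.768 and 2.36 CPM in libraries 1 to 4. The highest value was 21.6 CPM in the Foxp3 gate of library 4, from 42 of that library's 58 UMIs, and the fullest cell of the library held 24. Trdv4, a δ variable gene, was found at 0.0904 to 0.373 CPM over all cells and had no UMI in the Il17a, Cd8a or Gzma gates.

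Detection of the γ genes did not track the α chain, and most Trdc cells also held it. At 2000 UMIs per cell, Trac was found together with Tcrg-C1 in 421 cells where independent detection within each library would give 438, and with Tcrg-C2 in 908 against 935. The same counts were 2180 against 2237 for Trgv2 and 327 against 330 for Tcrg-V7. For Trdc, 45 of 62 cells held Trac, against 31.8 under independence. Without thinning, 83 of the 88 Trdc cells held Trac (94.3%, against 73.6% of all cells), and the ratio was above 1 in each of the 4 libraries. Of the 5 Trdc cells without Trac, 3 held a γ constant gene and 3 held neither β constant gene. A UMI of a γ constant gene was found in 30 of the 88 (34.1%, against 25.8% of all cells).

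Variable and constant genes were detected together by their place on the chromosome. Tcrg-V7 was found with Tcrg-C1 in 133 cells against 28.2 under independence, a ratio of 4.72, and with Tcrg-C2 in 54 against 57, a ratio of 0.948. Trgv2 was found with Tcrg-C2 in 1311 cells against 396, a ratio of 3.31, and with Tcrg-C1 in 286 against 176, a ratio of 1.62. All counts under independence were taken with the gates of a library pooled, so differing shares between gates enter these ratios. A UMI of Trgv2 was present in 72.5% of cells with Tcrg-C2 and in 33.5% of cells with Tcrg-C1. Trgj2, the joining segment printed above for the Tcrg-C2 cluster, was found in 27 cells, and 21 of these held Trgv2.

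Most other γ genes followed the same layout. Tcrg-V3 was found with Tcrg-C3, the constant gene downstream of it, in 18 cells against 0.246 and with Tcrg-C2 in 13 against 12.2. Tcrg-V6 was found with Tcrg-C1 in 59 cells against 5.8, and Tcrg-V1 with Tcrg-C4 in 328 against 102 but also with Tcrg-C2 in 261 against 114. Tcrg-V4 did not keep to 1 cluster, with 49 cells against 7.77 for Tcrg-C1 and 54 against 16.7 for Tcrg-C2, and Trgv2 was also found with Tcrg-C4, in 922 against 357. Clusters were also detected together, since Tcrg-C2 and Tcrg-C4 shared 441 cells against 150 and Tcrg-C1 and Tcrg-C2 shared 123 against 73.9. Of these 123 cells, 58 were in library 3, and in library 4 the count was 16 against 18.8. The split of UMIs between Tcrg-C1 and Tcrg-C2 is uncertain, which limits the count for that pair. For Trdc, the variable gene detected with it most often was Trdv1, in 27 of 62 cells against 1.27, of which 25 were in library 2. No thinned cell held Trdc and Trdv4 together, and without thinning 1 cell did.

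**Figure D2:**
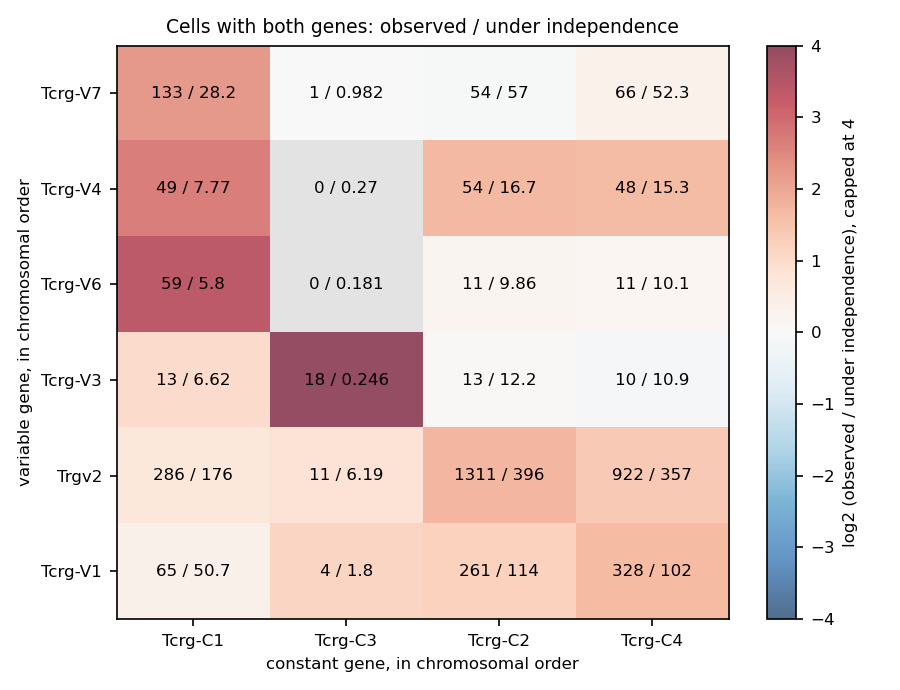
Cells at 2000 UMIs per cell with both a γ variable gene (rows) and a γ constant gene (columns), given as the observed count over the count under independent detection within each library, with colour for log2 of their ratio and grey where no cell held both. Within its own row Tcrg-V7 has its highest ratio with Tcrg-C1 (133 against 28.2) and Trgv2 with Tcrg-C2 (1311 against 396), and the highest ratios of the plot are those of Tcrg-V3 with Tcrg-C3 (18 against 0.246) and Tcrg-V6 with Tcrg-C1 (59 against 5.8).

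The γ transcripts were concentrated in cells that shared αβ receptor segments within a library. The segment named is the one whose share in cells with the gene most exceeded its share in the whole library. Among cells with 2 or more Tcrg-V7 UMIs, that β segment was Trbv13-2 in library 1 (55.1% of 49 cells, against 23.5% of other cells). In library 2 it was Trbv16 (73.3% of 172, against 15.3%). It was Trbv19 in library 3 (69.8% of 106, against 13.8%) and again Trbv13-2 in library 4 (58.2% of 134, against 20.7%). The α segment Trav4-4-dv10 was held by 49% of those cells of library 1, against 2.3% of others, and Trav7-4 by 47.8% of those of library 4, against 7.28%. In library 2 the α segment picked in this way was Trav13-2 (23.8% against 3.87%), and in library 3 it was Trav6-7-dv9, in only 8.49% against 3.6%. No single segment held for all libraries. Because each segment was picked by its excess, the gaps were made large by the choice and carry no test.

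The β segment with the largest excess over the library was taken in the same way for the other γ genes. For Tcrg-C1 at 2 or more UMIs, Trbv31 was found in 49.5% of 210 cells of library 3, against 14.3% of other cells, and in library 1 in 20% of 110 cells, against 14%. For Tcrg-C2 at 2 or more UMIs, Trbv1 was found in 42.8% of 425 cells of library 4, against 17.6%. In library 2 the segment picked was Trbv31, in 16.5% of 236 cells against 9.39%. Trgv2 at 5 or more UMIs likewise had Trbv1 in 49.2% of 577 cells of library 4, against 15.9%. In library 2 the corresponding excess for Trgv2 was small, with Trbv16 in 21.4% against 16.9%. For Trdc at 1 or more UMIs, Trbv31 was found in 66.7% of 48 cells of library 2, against 9.2%, and Trav6-7-dv9 in 68.8%, against 2.94%, while the other libraries had 10 to 16 Trdc cells each.

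**Figure D3:**
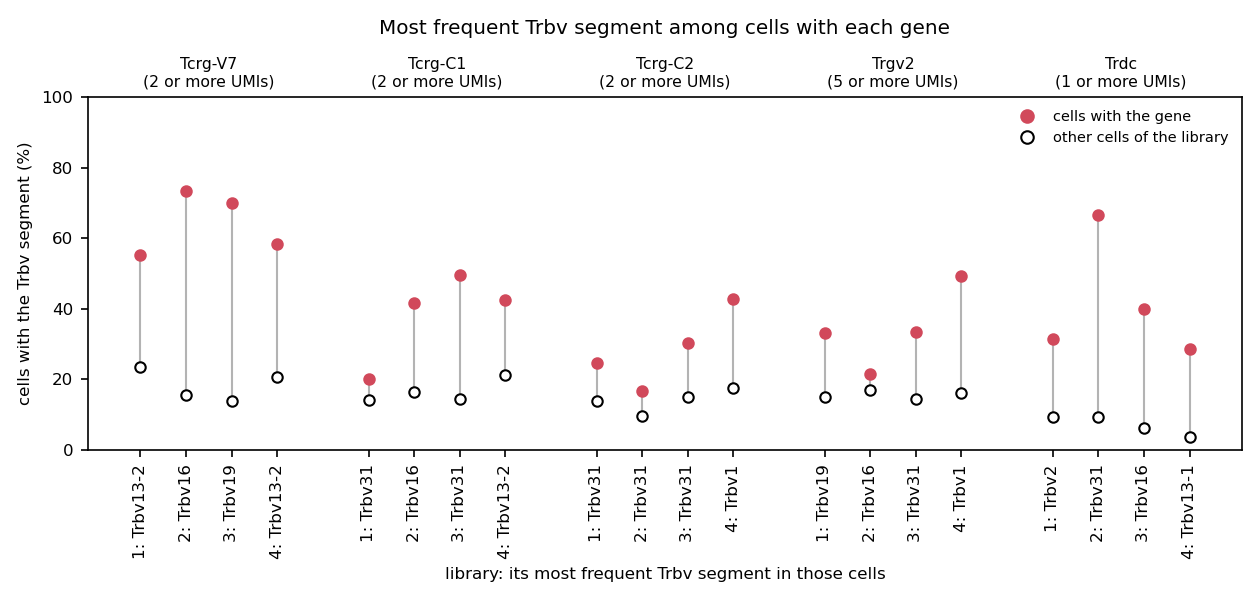
Share of cells (y axis, percent, without thinning) that hold the Trbv segment picked for each gene in libraries 1 to 4. Filled points are cells with the gene and open points the other cells of the library. The segment picked has the largest excess in cells with the gene over the whole library, though the figure's labels call it the most frequent. The gap is widest for Tcrg-V7 in library 2 (73.3% against 15.3%) and smallest for Trgv2 in library 2.

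Pairs of α and β segments narrowed this further. These pairs were chosen after their values were seen. In library 2, 53 cells held both Trav6-7-dv9 and Trbv31, and 30 of them held Trdc (56.6%), against 0.323% of the other cells of that library. Those 30 made up 62.5% of the 48 Trdc cells of library 2. Trav6-7-dv9 is one of the segments that can serve both the α and the δ chain, and Trdc cells were scattered over gates, with 47 of the 88 in the rest gate. In the same library, 64 cells held Trav13-2 and Trbv16, and 40 of them held 2 or more Tcrg-V7 UMIs (62.5%, against 2.37% of other cells). Those 40 made up only 23.3% of the 172 cells of library 2 with 2 or more Tcrg-V7 UMIs. Of the 64 cells with the pair, 1 was in the Cd8a gate. In library 4, Trav7-4 and Trbv13-2 marked 215 cells, of which 57 held 2 or more Tcrg-V7 UMIs (26.5%, against 1.56%). Those 57 made up 42.5% of the 134 such cells of library 4.

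The Cd8a gate held such a shared segment as well. In library 4, Trbv1 was found in 64.7% of its 306 cells, against 19.7% of the whole library. With Trbv1, 96% of these cells were γ-positive without thinning, and 63% were without it. In library 2, Trbv16 was found in 38% of 100 cells, of which all 38 were γ-positive, against 87.1% of the other 62. Libraries 1 and 3 had Trbv19 in 28.6% and 20.5% of the gate, with γ shares of 73.1% and 66.7% with it and 75.4% and 74.3% without it. When cells with these segments were left out of every gate, an alternative added after seeing the data, the γ-positive share at 2000 UMIs was 64.3% in the Cd8a gate, 22.7% in the rest and 4.48% in the Foxp3 gate. Tcrg-V7 in the Cd8a gate then fell from 287 to 30.1 CPM.

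The genes whose levels over gates were most alike to each member differed between the clusters. Over 24 sums (6 gates in 4 libraries), which share libraries and gates, and among 5787 genes, log2(CPM + 1) of Tcrg-C2 went most closely with Trgv2 (Pearson r 0.982) and Tcrg-C4 (0.967). Next came Jaml, an adhesion molecule of intestinal T cells (0.955), Prkacb, a catalytic subunit of protein kinase A (0.924), and Tgfbr3, a TGF-β co-receptor (0.917). For Tcrg-C1 the 5 were Scamp3 (0.811), Slc25a24 (0.79), Twf2 (0.778), Cmc2 (0.764) and D10Jhu81e (0.762), and r with Tcrg-C2 was 0.55. For Tcrg-V7 the highest was Sipa1 (0.824). These are descriptions over sums that are not independent.

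Jaml itself was found at 339 ± 11.5 CPM in the Cd8a gate, 209 ± 33.1 in the Gzma gate, 86.2 ± 4.38 in the rest and 23.4 ± 4.33 in the Foxp3 gate. Cd7, a membrane protein of T cells that is high in the gut epithelium, followed with 1720 ± 677, 430 ± 106, 171 ± 41.8 and 75.3 ± 34.8 CPM in these gates.

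Cells with and without a γ transcript were then compared within the Cd8a, Ifng and rest gates, for 8486 genes outside the γ and δ loci. Counts of thinned cells were summed per library, gate and class, which gave 422 and 137 cells in the Cd8a gate, 1972 and 4209 in the Ifng gate and 2438 and 8004 in the rest, positive first. A gene was called at an adjusted p under 0.05 in edgeR's quasi-likelihood test, with each library's gate as a block and 9 residual degrees of freedom. In the Cd8a gate 36 genes were called (0.424% of those tested), of which 15 were higher (0.177%) and 21 lower (0.247%) in positive cells, in the Ifng gate 194 (2.29%, 79 and 115) and in the rest 287 (3.38%, 95 and 192). A cell without a γ UMI at this depth can still hold the transcript, so the classes are not pure. Without the block the counts were 20, 31 and 74. The classes also differ in shared αβ segments and in gate genes. Gzma was found at 3041 ± 326 CPM in positive and 1309 ± 277 in negative cells of the Ifng gate, and at 289 ± 30.2 and 184 ± 15.7 in the rest. In the Cd8a gate Gzma lay at 11574 ± 3729 and 7585 ± 1844 CPM, though lower in positive cells of library 3. Cd8a lay at 966 ± 266 and 522 ± 129 CPM there. The part of these segments and gate genes in the differences was not tested.

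Several genes of tissue residence rose with γ detection, and several of recirculation fell. Of 19 tested genes for retention and homing, 6 rose and 4 fell in the Ifng gate and 6 rose and 5 fell in the rest, where 0.931% and 1.12% of all genes rose and 1.36% and 2.26% fell. The list's median log2 fold change was 0.15 in the Ifng gate and 0.08 in the rest, beside -0.0041 and 0.0044 for all genes.

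Cd7 rose in all 3 gates. In the rest gate it was found at 289 ± 81.9 CPM in positive and 140 ± 34.3 in negative cells, a log2 fold change of 1.02 ± 0.08 (SE, edgeR adjusted p 1.2e-14, higher in 4 of 4 libraries). Its change was 0.92 ± 0.09 in the Ifng gate and 0.86 ± 0.12 in the Cd8a gate. Without the block Cd7 was not called in the Ifng and Cd8a gates (edgeR adjusted p 0.0553 and 0.147), nor was it in the Cd8a gate when positive cells were taken by Tcrg-C1 and Tcrg-C2 alone (0.145). Itgae, the integrin chain CD103 that binds epithelial E-cadherin, rose by 1.01 ± 0.08 in the Ifng gate (253 ± 36.6 against 125 ± 22.2 CPM) and by 0.80 ± 0.08 in the rest. Jaml rose by 0.96 ± 0.09 and 0.84 ± 0.09 in these gates, and Ccr9, the receptor that homes T cells to the small intestine, rose by 0.44 ± 0.05 in the Ifng gate, where it was not called without the block (edgeR adjusted p 0.193).

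Of the genes that fell, Ccr7, the receptor for entry into lymph nodes, fell by 3.30 on the log2 scale in the rest gate (6.15 ± 4.45 against 60.6 ± 34 CPM, edgeR adjusted p 1.51e-15). Klf2, a factor that keeps T cells in circulation, fell by 1.45 in the Ifng gate and by 1.27 in the rest, but by 0.60 in the rest and not called with positive cells taken by Tcrg-C1 and Tcrg-C2 alone (edgeR adjusted p 0.17). Lef1, a factor of naive T cells, fell by 1.32 and 1.92 in these gates, the first not called without library 4 (edgeR adjusted p 0.0599), without the block (0.0764), by the constant genes alone (0.146) or at 1000 UMIs (0.672). Ccr2, a chemokine receptor of recruited cells, fell by 1.42 in the Ifng gate (18.2 ± 3.01 against 48 ± 18 CPM), but at 1000 UMIs per cell by 0.50 and not called (edgeR adjusted p 0.502). In the Cd8a gate Klf2 lay at 14.9 ± 16 CPM in positive and 92.1 ± 71 in negative cells, which did not pass the test (edgeR adjusted p 0.242).

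Some effector genes rose. In the Ifng gate 5 of 12 tested cytokine and chemokine genes rose (0.931% of all genes) and 1 fell (1.36%). In the rest 2 rose (1.12% of all genes) and 3 fell (2.26%). Il10, an anti-inflammatory cytokine, was found at 111 ± 19.5 CPM in positive and 47 ± 23.8 in negative cells of the Ifng gate, a log2 fold change of 1.25 ± 0.16 (edgeR adjusted p 1.83e-07). In the rest gate it fell by 2.22 (6.44 ± 2.53 against 29.1 ± 7.87 CPM, edgeR adjusted p 7.44e-07), and the difference between these gates was not tested. Il21, a cytokine of B cell help, rose by 1.19 ± 0.17 in the Ifng gate and Il22, which acts on epithelium, by 0.83 ± 0.23. Without library 2 the rise of Il22 was 0.51 and not called (edgeR adjusted p 0.432), nor was it called without the block (0.91) or by DESeq2 (0.777). Ccl5, a chemokine of effector T cells, rose by 0.70 ± 0.08 in the Cd8a gate, 0.47 ± 0.07 in the Ifng gate and 0.32 ± 0.07 in the rest. Without the block Ccl5 was not called in any of the 3 gates (edgeR adjusted p 0.147, 0.487 and 0.822), and DESeq2 did not call it in the Ifng gate or the rest (adjusted p 0.0643 and 0.483), nor did edgeR without thinning (0.308 and 0.374).

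Of 7 tested granzyme and killing genes, 2 rose and 1 fell in the Ifng gate, 3 rose and 2 fell in the rest, and none was called in the Cd8a gate, beside 0.931% and 1.36% of all genes in the Ifng gate and 1.12% and 2.26% in the rest. Gzmb, granzyme B, rose by 0.88 ± 0.08 in the Ifng gate (1919 ± 332 against 1030.3 ± 172 CPM), and Nkg7, a granule protein, by 0.35 ± 0.04 there and 0.33 ± 0.04 in the rest, neither called without the block (edgeR adjusted p 0.182 and 0.146) and the first not without thinning (0.0504). Gzmk, granzyme K, fell by 0.39 and 0.66 in these gates, the first not called without library 3 (edgeR adjusted p 0.0553). Neither fall of Gzmk was called without the block (0.579 and 0.185), at 1000 UMIs (0.259 and 0.313) or by the constant genes alone (0.205 and 0.0938). Of 10 tested NK-type receptors and adaptors, none rose and 2 fell in the Ifng gate, where the list's median log2 fold change was -0.62. In each of the other 2 gates 1 rose and 1 fell. Of all genes, 0.177% rose and 0.247% fell in the Cd8a gate, beside the shares given above for the Ifng gate and the rest. Fcer1g and Crtam fell by 2.02 and 2.0 in the Ifng gate, and neither was called without the block (edgeR adjusted p 0.546 and 0.297) or without thinning (0.827 and 0.19). Fcer1g was also not called without library 1, 3 or 4 (edgeR adjusted p 0.179, 0.143 and 0.118) and fell by 3.10 without library 2, and Crtam was not without library 2 or 4 (0.0677 and 0.0913). Tyrobp, a signalling adaptor, fell by 1.98 in the Cd8a gate and was not called without library 1 or 3 (edgeR adjusted p 0.126 and 0.207) or without the block (0.423), and without library 2 it fell by 3.52. Cd160 rose by 0.48 ± 0.06 in the rest and by 0.67 ± 0.17 in the Cd8a gate. The latter was not called without library 1, 2 or 4 (edgeR adjusted p 0.306, 0.17 and 0.187), nor without the block (0.175), by DESeq2 (0.0774) or with library size alone (0.187). Klrg1, a marker of terminal effector and some regulatory cells, fell by 4.49 in the rest.

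The lineage genes that were called mainly fell. Of 15 tested CD4 and CD8 lineage genes, 1 rose (Runx3, a factor of CD8 T cells) and 5 fell in the rest. In the Ifng gate 2 fell, and none was called in the Cd8a gate. Of all genes, 1.12% rose and 2.26% fell in the rest, 1.36% fell in the Ifng gate and 0.424% were called in the Cd8a gate. Eomes, a T-box factor of cytotoxic cells, fell by 3.25 in the Ifng gate and by 4.56 in the rest from low levels (9.95 ± 6.11 and 6.29 ± 4.37 CPM in negative cells), the first not called without the block (edgeR adjusted p 0.0902). Satb1 fell by 0.74 and Gata3, the factor of Th2 cells, by 0.31 in the rest, where Gata3 was not called without library 2 or 3 (edgeR adjusted p 0.167 and 0.148). Without the block neither was called (0.27 and 0.856), nor was Gata3 by DESeq2 (0.105) or Satb1 by the constant genes alone (0.0985). Cd4 lay at 384 ± 64.2 and 364 ± 61.1 CPM in positive and negative cells of the Cd8a gate (edgeR adjusted p 0.813).

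Of 12 genes listed for the γδ lineage, 5 could be tested. Id2, which many resident lymphocytes use, rose by 0.28 ± 0.04 in the Ifng gate and 0.29 ± 0.04 in the rest, but was called in neither without the block (edgeR adjusted p 0.505 and 0.385) or without thinning (0.211 and 0.0749). Maf, which γδ T cells need to make IL-17, lay at 458 ± 46.8 and 402 ± 23.5 CPM in the Ifng gate (edgeR adjusted p 0.181). Sox13, a defining factor of some γδ T cells, had no UMI in any cell.

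Some receptor, survival and stress genes were called. Of all genes, 0.177% rose and 0.247% fell in the Cd8a gate, 0.931% and 1.36% in the Ifng gate and 1.12% and 2.26% in the rest. Of 14 tested αβ receptor and proximal signalling genes, 2 rose in the Cd8a gate, 1 rose and 2 fell in the Ifng gate and 2 fell in the rest. Cd28 fell by 0.38 in the Ifng gate and 0.35 in the rest, and Cd2 by 0.34 and 0.30. The fall of Cd2 was not called in the Ifng gate without library 4 (edgeR adjusted p 0.161). Without the block none of these falls was called (0.15 and 0.14 for Cd28, 0.386 and 0.352 for Cd2). Cd3g rose by 0.47 ± 0.08 in the Cd8a gate and 0.17 ± 0.04 in the Ifng gate, the first not called by the constant genes alone (edgeR adjusted p 0.881) or at 1000 UMIs (0.0686) and the second not without the block (0.395) or thinning (0.377). The other gene that rose in the Cd8a gate was Cd3e. It was not called with library size alone (edgeR adjusted p 0.109), by the constant genes alone (0.695) or at 1000 UMIs (0.63). Nor was Cd3e called by DESeq2 (adjusted p 0.0854). Of 15 genes from the IL-7 and IL-15 receptors to STAT5, 2 rose and 3 fell in the rest and none was called in the other 2 gates. Bcl2, a survival factor, rose by 0.45 ± 0.08 and Il7r by 0.22 ± 0.06 there, and Pim1 fell by 0.44. Il7r was not called without library 4 (edgeR adjusted p 0.116). Without the block Bcl2, Il7r and Pim1 were not called (0.0907, 0.865 and 0.681), nor were Il7r and Pim1 by DESeq2 (0.513 and 0.264) or by the constant genes alone (0.346 and 0.317). Of 14 genes of dissociation stress, Jun rose and Nr4a1 fell in the Ifng gate, and Fos rose and Nr4a1 and Hspa1a fell in the rest. Jun was not called without library 3 (edgeR adjusted p 0.069), nor Hspa1a without library 2, 3 or 4 (0.0854, 0.0612 and 0.538), and without the block none of these 5 stress calls was made (0.352 to 0.916).

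**Figure D4:**
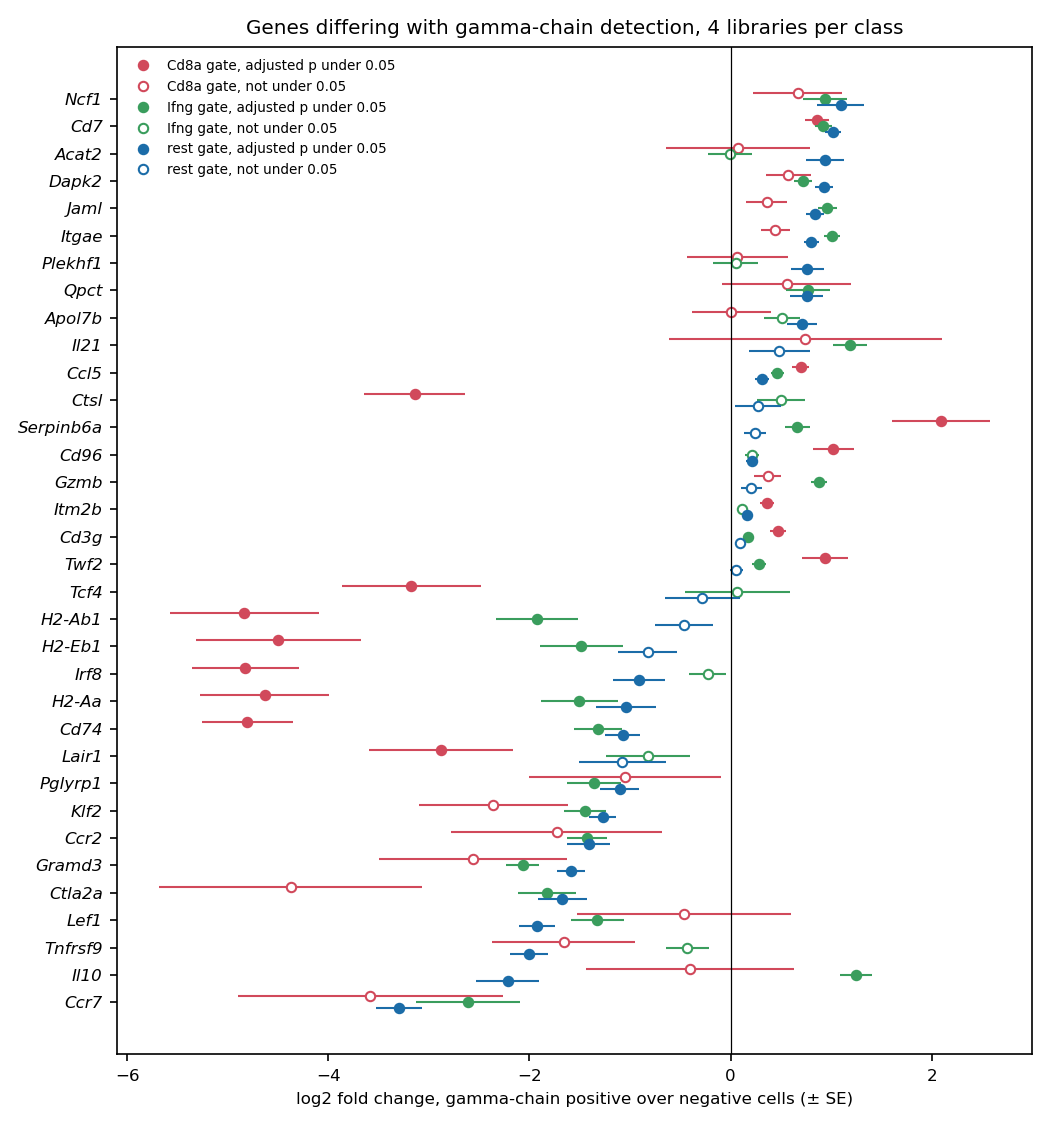
Log2 fold change of γ-positive over γ-negative cells (x axis, ± SE) for 34 genes named by the size rule (rows), with filled points where the edgeR adjusted p was under 0.05 and 4 libraries in each class. Cd7 lies to the right of zero in all 3 gates (0.86 to 1.02), Il10 lies on opposite sides in the Ifng and rest gates, and 7 further genes with a class at zero in some gate are left out.

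Several genes that fell most in the rest gate were highest in the Foxp3 gate. Klrg1 was found at 584 ± 91.1 CPM in the Foxp3 gate and 29.4 ± 13.1 in the rest, and Areg, a growth factor that regulatory T cells make, at 1574 ± 259 and 154 ± 26.7. Areg fell by 1.86 with γ detection in the rest gate (51.8 ± 29.4 against 178 ± 17.5 CPM). Tnfrsf9 and Cd83, activation markers, were found at 846 ± 172 and 496 ± 64.6 CPM in the Foxp3 gate and fell by 2.0 and 2.97 in the rest, the first not called by DESeq2 (adjusted p 0.0734). Igfbp4, which fell by 5.38 there, was found at 3.35 ± 4.84 CPM in the Foxp3 gate and 30.7 ± 11.7 in the rest. The part of cells with undetected Foxp3 in these changes was not tested.

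Markers of several other cell types were higher in the negative class, but not every list in every gate. The summed level of the 3 plasma cell markers was 4.35 ± 1.76 CPM in positive and 145 ± 97.4 in negative cells of the rest, and Jchain, the joining chain of IgA, was named among the genes that fell there (by 4.72, and by 3.03 and not called without thinning, edgeR adjusted p 0.0635). In the rest the 6 innate lymphoid or NK markers summed to 14.5 to 20.5 CPM in positive and 21.8 to 38.9 in negative libraries, the 7 epithelial markers to 5.4 to 12.4 and 19.6 to 26.5, and the 4 B cell markers to 0.824 to 5.33 and 6.37 to 10.8. In the Ifng gate the innate lymphoid or NK markers summed to 10.2 ± 4.77 and 23.2 ± 6.22 CPM. The epithelial markers there gave 11.9 ± 4.15 and 9.97 ± 2.86 CPM, and the B cell markers 6.7 ± 4.41 and 6.52 ± 2.96. The 5 stromal or endothelial markers gave 37.1 ± 5.68 and 37.5 ± 5.75 CPM there. Plasma cell markers of that gate were higher in positive cells of libraries 1 and 3 (16.3 against 7.38 and 170 against 4.09 CPM) and lower in those of libraries 2 and 4. The part of such cells in the changes of these gates was not tested for each list. The 6 myeloid markers summed to 20 ± 5.6 and 58 ± 22 CPM in the Cd8a gate, with negative libraries at 35.7 to 83.3 CPM. The B cell markers there gave 12.3 ± 14.9 and 14.5 ± 14.6 CPM. In that gate the genes that fell most were those of antigen presentation and of plasmacytoid or B cells. Cd74, the invariant chain, was found at 11.4 ± 18.6 CPM in positive and 1068 ± 697 in negative cells (log2 fold change -4.81 ± 0.45, edgeR adjusted p 8.28e-11). H2-Ab1, H2-Aa and H2-Eb1, of MHC class II, fell by 4.83, 4.63 and 4.5, and Irf8 by 4.83, Tcf4 by 3.18 and Ctsl by 3.14. Library 4 alone held UMIs of the 3 class II genes in positive cells, and without it their fitted changes, then against a class at 0, were -11.2, -11.9 and -10.8 and that of Cd74 was -8.81. Ctsl was not called at 1000 UMIs or by the constant genes alone (edgeR adjusted p 0.202 and 0.212). H2-Eb1 was not called without library 1 (edgeR adjusted p 0.0566), nor Tcf4 without library 2 or 3 (0.201 and 0.136).

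An alternative added after seeing the data left out cells with no CD3 transcript, with 2 or more of H2-Aa, H2-Ab1, H2-Eb1 and Irf8, or with 10 or more Jchain UMIs, 14 of 585 cells in the Cd8a gate. It removes cells by some of the genes that fell, so the loss of their calls follows from the filter and is no test of them. It left 13 calls there in place of 36, 10 higher and 3 lower, and Cd74 then had a log2 fold change of 0.20 and Irf8 one of -2.67 (edgeR adjusted p 0.995 and 0.272). Cd7, Ccl5, Cd96, Cd3g and Itm2b remained called as higher and Xcl1 as lower. In the Ifng and rest gates the same alternative gave 210 and 288 calls, and all 28 and 37 named called genes that could be fitted stayed called. The γ-positive share of the Cd8a gate was 74% without these cells. With all cells kept, Itm2b was not called there with library size alone (edgeR adjusted p 0.0769) or by the constant genes alone (0.852). DESeq2 did not call Itm2b either (adjusted p 0.0818).

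Among genes higher in positive cells of the Cd8a gate, Cd96, a receptor of T and NK cells, rose by 1.02 ± 0.20 (399 ± 51.8 against 192 ± 67.7 CPM) and Serpinb6a, a protease inhibitor, by 2.10 ± 0.49. Cd96 was not called with cells thinned to 1000 UMIs or with positive cells taken by Tcrg-C1 and Tcrg-C2 alone (edgeR adjusted p 0.861 and 0.881). Tbc1d9b had no UMI in thinned negative cells and 42.4 ± 36.4 CPM in positive ones, but without thinning its log2 fold change was 0.56 and not called (edgeR adjusted p 0.767), and at 1000 UMIs it was -0.17 (0.991). Xcl1, a chemokine of CD8 T and NK cells, fell by 1.53 (202 ± 82 against 526 ± 447 CPM, lower in 3 of 4 libraries). Without library 4 Xcl1 and Serpinb6a were not called (edgeR adjusted p 0.0787 and 0.395), nor were they by DESeq2 (0.0854 and 0.113). Serpinb6a was also not called without library 1 (edgeR adjusted p 0.132) or without thinning (0.0722), nor Xcl1 without the block (0.133), nor Tbc1d9b without any 1 library (0.0733 to 0.298). With TMM scaling all genes of this gate had a median log2 fold change of 0.11, and with library size alone one of 0.018. The calls split into 15 higher and 21 lower under TMM, 7 and 29 under library size alone, and 5 and 30 under DESeq2, which shared 20 of its 35 calls with edgeR.

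Whether the positive against negative contrast differed between the Cd8a gate and the rest was tested in the same fit. The difference was called for 18 genes (0.212%), of which 6 had a higher change (0.0707%) and 12 a lower one (0.141%) in the Cd8a gate. Among named genes these were Cd74, H2-Ab1, H2-Aa, Irf8, Ctsl, Xcl1 and Cd3g. Without the block no difference was called in edgeR, where 537 genes had an unadjusted p under 0.05, and DESeq2 with the block called 18. With the cells of other types left out 9 were called. For Xcl1 the difference was -1.82 on the log2 scale, and for Cd3g 0.38. Cd7, Itgae and Jaml did not pass this test (edgeR adjusted p 0.89, 0.72 and 0.72), which does not show that their changes were the same.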

How the data were processed

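UMI counts came as 1 matrix for each library, which the authors produced with Cell Ranger 3.0.2 (mm10), per the submitters' processing notes. The deposited counts were whole numbers and totalled 23918884 to 28783972 UMIs per library in 22904 barcodes. The limit of 11.1% given for background covers counting error only. Values after ± are SDs over libraries or, for log2 fold changes, SEs from the edgeR fit. Cells with at least 500 genes, 1000 UMIs and at most 10% mitochondrial UMIs were kept (22534), and 1033 with the highest Scrublet scores (scanpy 1.11.5) were removed at 0.8% per 1000 barcodes. Shares and tests used 2000 UMIs drawn at random from each cell that had as many.

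Thinned counts were summed per library, gate and class and tested with edgeR 4.0.16 (glmQLFit, glmQLFTest, TMM, filterByExpr) under R 4.3.3, adjusted by Benjamini-Hochberg over 8486 genes. Both classes of a gate come from the same library, so the library within its gate was the block. Genes of the γ and δ loci and the 5 gate genes were not tested. DESeq2 1.42.0 was an alternative. On simulated counts for the Cd8a gate (8299 genes), 21% of genes changed by log2 1 and 63% by log2 2 were recovered, with 5 false calls. Named genes were up to 8 highest and 8 lowest log2 fold changes among calls in 1 direction in 4 libraries with at least 20 CPM in 1 class, and up to 4 per gene list by adjusted p. Predicted, receptor, ribosomal and mitochondrial genes were left out. Members and lists were chosen with earlier results of these data known. Positions and sequences are from GENCODE M21 (mm10).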

Additional observations from a re-analysis of the deposited data

Results flagged for a closer look

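With 4 libraries, a library was singled out where its gap to the nearest other passed Dixon's 95% critical value as a share of the whole range, which chance gives in about 1 group in 20. The rule was applied to each of the 6 genes over all cells and in each gate. Both CPM and share of cells were screened wherever the gene had at least 20 UMIs. With so many groups screened, some of the flags below may be due to chance. In the Cd8a gate, Tcrg-C2 stood apart in library 4 at 280 CPM and Trgv2 in library 4 at 1136 CPM. In the same gate Tcrg-V7 stood apart in library 2, at 1099.7 CPM and in 32.3% of cells. In the rest gate Tcrg-V7 was low in library 1, in 1.06% of cells. Trdc stood apart in library 2 over all cells (0.682% of cells) and in the rest gate (7.43 CPM), and in library 4 in the Foxp3 gate (21.6 CPM).

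The change with γ detection differed between the Cd8a gate and the rest, by the test of the difference in the same fit, for 7 named genes. On the log2 scale the difference, Cd8a gate minus rest, was -4.37 for H2-Ab1, -3.92 for Irf8, -3.73 for Cd74, -3.60 for H2-Aa, -3.42 for Ctsl, -1.82 for Xcl1 and 0.38 for Cd3g. With the cells of other types left out 9 differences were called in place of 18, and the change within the Cd8a gate was then 0.20 for Cd74 and 0.87 for Ctsl, though that filter uses H2-Ab1, H2-Aa and Irf8 itself. Without the block edgeR called no difference (537 genes had an unadjusted p under 0.05) and DESeq2 with the block called 18.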

How the results depend on the processing

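Depth set the shares. Thinned to 1000 UMIs, γ-positive shares were 62.2% in the Cd8a gate, 22.9% in the Ifng gate, 32.6% in the Gzma gate and 16.6% in the rest. Without thinning they were 8.69% in the Foxp3, 43% in the Il17a, 39.9% in the Ifng and 29.7% in the rest gate. Trdc cells with Trac were 42.5% at 1000 UMIs and 94.3% without thinning, and Tcrg-C2 cells with Trgv2 were 54.8% and 84.8%. Tcrg-V7 cells with Tcrg-C1 were 13.9% and 29.4%, and with Tcrg-C2 4.01% and 18.2%. Tcrg-V7 cells with Tcrg-C1 were 16.8% at a mitochondrial limit of 5% and 16.6% without the shared Trbv segments.

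Calls in the Cd8a, Ifng and rest gates and for the difference were 20, 31, 74 and 0 with no replicate block, against 36, 194, 287 and 18 with it (for the difference, 537 genes had an unadjusted p under 0.05 in that edgeR fit, and DESeq2 called 18). With positivity by Tcrg-C1 and Tcrg-C2 only they were 22, 90, 105 and 6. At 1000 UMIs the Ifng gate, the rest and the difference gave 118, 155 and 9. Without thinning the Cd8a gate gave 138 and the difference 48, with no filter on low counts 68 and 38, and a separate fit gave 15 in the Cd8a gate. Without cells of other types, added later, the Cd8a gate gave 13 and the difference 9. Leaving out 1 library gave 27 to 52, 141 to 207, 203 to 261 and 14 to 21 calls. Among named genes, Cd74 and Ctsl in the Cd8a gate turned to 0.20 and 0.87 on the log2 scale without cells of other types, Tbc1d9b there to -0.17 at 1000 UMIs, and H2-Aa in the Ifng gate to 0.31 without thinning, none of them called. Leaving out cells of other types removes cells by some of these genes. Apart from that, the cause of these moves was not tested.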
